A study of Mus musculus with 9 samples.

Results

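The nuclear genes of the oxidative phosphorylation system were examined across mammary tumours of 3 mouse carcinoma lines, 4T1, 66cl4 and 67NR. Members were all genes whose symbol in the array annotation starts with Nduf, Uqcr, Sdh and a single letter, Cox and a digit, or Atp5, without Ndufa4l2 and Cox4i2. This gave 96 of 18193 genes, each represented by its brightest probe set. The rule reads symbols alone, but it was chosen with earlier results of these data known. Genes with these prefixes that share every probe set with another gene, such as Ndufa11, Ndufs6 and Cox14, are not among the 96. Of the members, 35 belong to complex I, 4 to complex II, 8 to complex III, 16 to complex IV and 17 to complex V by their prefix. The other 16 encode assembly factors (Ndufaf1 to Ndufaf8, Cox10, Cox11 and Cox15 to Cox20), which build the complexes without staying in them.

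Complexes I and II pass electrons from NADH and succinate to ubiquinone, complex III hands them to cytochrome c, and complex IV reduces oxygen. Complexes I, III and IV pump protons across the inner mitochondrial membrane, and complex V, the ATP synthase, uses their return flow to make ATP. Most subunits are encoded in the nucleus and imported, while a small core is encoded in mitochondrial DNA and was not analysed here. Tumour cells are known to shift between this system and glycolysis.

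The groups were tumours of 4T1/CMVLUC cells, tumours of 66cl4/CMVLUC cells and tumours of 67NR/CMVLUC cells, each line injected into the right mammary gland in position 4 of 3 female BALB/c mice aged 7 to 9 weeks. Tumours were taken on day 15, and RNA came from laser-captured tumour areas, so 9 arrays from 9 mice were compared. The hosts were of 1 inbred strain, all 3 lines bear the same CMVLUC suffix, and each line is 1 cell population, so a difference between lines rests on a single line on either side. Captured tumour areas hold host cells besides carcinoma cells, and fewer cells of a type cannot be told apart from less RNA per cell.

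Values are deposited log2 signals, in which a difference of 1 is a 2-fold change, and levels of different genes are not compared because each probe set has its own brightness. The test was limma, fitted to all 13409 genes that passed the filter, and a member counts as changed where its p, adjusted by Benjamini-Hochberg over those genes, was under 0.05. Every adjusted p below comes from that fit, except for further or shared probe sets. Those had a limma fit to all probe sets past the filter. Of the 96 members, 95 were tested, and the own probe set of Ndufb4 was too dim on every array (3.20 to 3.54). Most members were bright on all arrays, but Cox7a1, Cox8b and Cox7b2 passed the filter on only 3, 5 and 6 arrays. Cox7a1 and Cox8b had low values, while Cox7b2 had means of 8.92 in 66cl4 and 8.32 in 67NR tumours, against 3.66 in 4T1. A gene that passed only where it was high had to differ, so the calls of Cox7a1 and Cox7b2 are given as values and are not read as support. Both genes remain in the counts of called members below.

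Several library-wide measures moved with the lines. The spiked hybridization controls averaged 10.46 ± 0.22 log2 units on 4T1 arrays, 10.86 ± 0.23 on 66cl4 arrays and 11.16 ± 0.30 on 67NR arrays (SD, n = 3 each). The 3 67NR arrays also carried higher numbers in their names than the 6 others, and what these numbers stand for is not given. Of 10 macrophage markers, 9 had lower signals in 4T1 than 67NR arrays, with array means of 9.87 to 10.25 in 4T1, 11.26 to 11.64 in 66cl4 and 11.00 to 11.17 in 67NR. All 8 mast cell markers and all 9 endothelial markers were lower in 4T1 and in 66cl4 than in 67NR tumours, and the mast cell genes Ms4a2 and Fcer1a were not above background in either. Of 6 pericyte markers 5 were lower in 4T1 and 5 in 66cl4 than in 67NR, with array means of 7.40 to 8.03 in 4T1, 7.58 to 8.30 in 66cl4 and 9.76 to 9.90 in 67NR. Of 7 neutrophil markers 3 were higher in 4T1 than in 67NR and 4 higher than in 66cl4, with array means of 8.13 to 8.67 in 4T1, 6.93 to 7.51 in 66cl4 and 7.06 to 7.54 in 67NR. Among 8 markers of T and NK cells, 3 fell in 4T1 and all 8 in 66cl4 against 67NR, with array means of 6.51 to 7.11 in 4T1, 5.59 to 6.17 in 66cl4 and 7.07 to 7.69 in 67NR. Of 4 tested adipocyte markers, 2 were lower in 4T1 than in 67NR, and 2 were lower and 1 higher in 66cl4 than in 67NR. Fabp4 had -3.71 in 4T1 and -2.73 in 66cl4, and Pparg -2.01 and -1.78, all against 67NR. Cidec, Lep, Cidea and Ucp1 were not above background in any line. Epithelial markers had array means of 10.10 to 10.29 in 4T1, 6.25 to 6.56 in 66cl4 and 5.29 to 5.43 in 67NR. In 4T1, 6 of the 7 were higher than in 67NR and 6 higher than in 66cl4. Krt8 alone was called higher in 66cl4 than in 67NR, with means of 13.48 in 4T1, 13.01 in 66cl4 and 6.74 in 67NR. Krt7 and Cdh1 were not above background in 66cl4 or 67NR tumours. The part of these measures in the results below was not tested, apart from the fits with the array number and the spiked controls as covariates.

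Promoters of 4 members whose values stand apart below are printed, each as the 300 bases that run 250 bases before to 50 after the RefSeq gene start (build GRCm38.p6). Capitals mark matches, on either strand, to letters of 3 motifs often found at genes of mitochondrial proteins: GCGCATG (a half-site of nuclear respiratory factor 1), CCGGAAG (the core bound by ETS factors such as GABP) and AAGATGG (the core of YY1). Cox7b2 is shown as the member with the widest difference, Ndufb8 and Atp5h for their high signal in 66cl4 tumours, and Ndufa12 for its high signal in 67NR tumours.
Cox7b2, chr5:71548156-71548455, minus strand: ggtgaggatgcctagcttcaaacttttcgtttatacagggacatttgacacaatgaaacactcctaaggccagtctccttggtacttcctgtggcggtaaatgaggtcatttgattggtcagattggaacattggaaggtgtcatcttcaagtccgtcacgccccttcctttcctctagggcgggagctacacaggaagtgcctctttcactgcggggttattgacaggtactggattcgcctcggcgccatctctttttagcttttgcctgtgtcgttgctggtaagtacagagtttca
Ndufb8, chr19:44555393-44555692, minus strand: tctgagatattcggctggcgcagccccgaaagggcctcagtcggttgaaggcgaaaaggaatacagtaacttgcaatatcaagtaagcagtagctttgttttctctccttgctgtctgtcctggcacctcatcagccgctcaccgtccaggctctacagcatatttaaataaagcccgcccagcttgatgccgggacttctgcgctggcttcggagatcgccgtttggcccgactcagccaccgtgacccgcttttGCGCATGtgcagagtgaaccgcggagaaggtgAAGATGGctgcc
Atp5h, chr11:115419870-115420169, minus strand: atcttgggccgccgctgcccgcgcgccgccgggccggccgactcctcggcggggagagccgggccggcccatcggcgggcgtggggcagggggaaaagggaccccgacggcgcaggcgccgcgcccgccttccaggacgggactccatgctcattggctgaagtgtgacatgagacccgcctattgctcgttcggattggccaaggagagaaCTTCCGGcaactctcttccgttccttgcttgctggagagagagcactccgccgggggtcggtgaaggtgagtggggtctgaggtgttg
Ndufa12, chr10:94198785-94199084, plus strand: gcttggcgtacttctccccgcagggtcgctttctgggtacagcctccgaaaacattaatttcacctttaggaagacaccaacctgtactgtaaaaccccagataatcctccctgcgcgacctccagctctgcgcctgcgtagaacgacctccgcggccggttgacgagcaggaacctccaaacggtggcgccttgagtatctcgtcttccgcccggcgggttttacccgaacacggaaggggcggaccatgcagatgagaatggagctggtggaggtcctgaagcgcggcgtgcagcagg
The Ndufb8 window holds the NRF1 half-site at base 7 after the start and the YY1 core at base 39. The Atp5h window holds the ETS core on the opposite strand, at base -38. None of these letters is in the Cox7b2 or Ndufa12 window. The Cox7b2 window has 10 CpG dinucleotides, against 19 for Ndufb8, 32 for Atp5h and 25 for Ndufa12. Over the 80 members with such a window, 17.5% held the NRF1 half-site, 28.8% the ETS core and 16.2% the YY1 core. The shares over 17492 protein-coding genes were 5.40%, 12.9% and 7.18%. Any of the 3 motifs was in 48.8% of the members, against 22.8% of all genes, and overlaps between motifs were allowed. Member windows had a median of 20 CpG dinucleotides, against 13 over all windows.

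The first comparison asked how the respiratory genes of 4T1 tumours, a line that spreads to distant organs, stood against those of the non-metastatic 67NR line. In 4T1 tumours 34 of 95 tested members were lower (35.8%) and 6 were higher (6.32%). Over all genes tested 20.5% were lower and 19.4% higher. The median difference of the members was -0.19 log2 units, against -0.03 over all genes, and 68 of 95 members lay below 0. Differences were small: 4 of 95 members were called with at least a 2-fold change (4.21%), against 13.5% of all genes.

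By complex, 15 of 34 complex I genes were lower and 2 higher, 1 of 4 complex II genes was lower, 5 of 8 complex III genes were lower and 1 higher, 3 of 16 complex IV genes were lower and 2 higher, and 6 of 17 complex V genes were lower. Among assembly factors 4 of 16 were lower and 1 was higher. The median differences were -0.22 for complex I, -0.13 for complex II, -0.54 for complex III, -0.13 for complex IV and -0.12 for complex V.

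The excess of lower members did not hold in every fit. With the array number as a covariate 10 members (10.5%) were lower, against 8.89% of all genes, and with the spiked controls as a covariate 10 (10.5%), against 7.46% of all genes. The same 10 genes were called lower in all 3 fits, namely Atp5d, Atp5g2, Atp5h, Cox7b2, Ndufa12, Ndufs4, Ndufs7, Uqcr10, Uqcr11 and Uqcrh. The call of Cox7b2 among them is not read as support. The 6 higher members became 1 with the array number (1.05%, against 11.0% of all genes) and 0 with the spiked controls (against 8.58%). With the spiked controls 6 were higher at an unadjusted limma p under 0.05. Both measures run with the lines, so their share and that of the lines cannot be told apart. Without probe sets that can match several transcripts 71 members were tested, and 22 were lower in 4T1 than in 67NR (31.0%, against 19.8% of all genes).

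**Figure D1:**
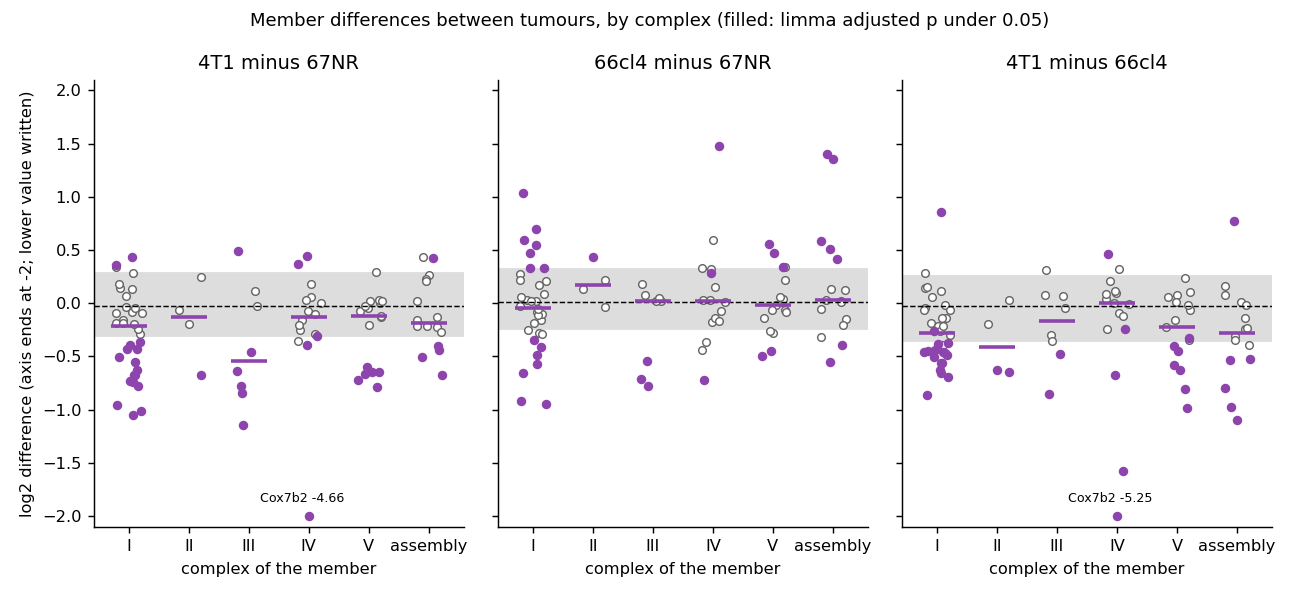
Log2 difference of each tested member for 4T1 minus 67NR, 66cl4 minus 67NR and 4T1 minus 66cl4, by complex. Filled points passed the limma test, bars are medians, the dashed line and grey band are the median and the middle 50% of all 13409 genes, and the Cox7b2 values of -4.66 and -5.25 are written at the axis end.

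In complex III, Uqcr11, a small subunit of the cytochrome bc1 complex, had log2 signals of 10.25, 10.11 and 10.05 in 4T1 tumours, 10.35, 10.49 and 10.65 in 66cl4 tumours and 11.08, 11.27 and 11.49 in 67NR tumours. The 3 67NR arrays lay above the 6 others, and all 4T1 arrays below. The difference between 4T1 and 67NR was -1.14 ± 0.13 (SE, adjusted p = 0.00011, lower in 3 of 3 arrays), a 2.20-fold lower signal in 4T1. Uqcr10, another small subunit, had 10.51, 10.27 and 10.65 in 4T1 tumours, against 11.32, 11.26 and 11.39 in 67NR tumours, with no overlap and a difference of -0.85 ± 0.11 (SE, adjusted p = 0.00031). Uqcrh, the hinge protein that bridges to cytochrome c, had 11.43, 11.19 and 11.40 in 4T1 tumours, 12.12, 12.11 and 12.34 in 66cl4 tumours and 12.09, 12.02 and 12.22 in 67NR tumours. Here 4T1 stood alone, with differences of -0.77 to 67NR (adjusted p = 0.00051) and -0.85 to 66cl4 (adjusted p = 0.00028). Uqcrc2 (-0.45) and Uqcrq (-0.64) were also lower in 4T1 than in 67NR. Uqcrc1, a core protein of the matrix side, went the other way, with 11.34, 11.05 and 10.73 in 4T1 tumours against 10.45, 10.45 and 10.75 in 67NR tumours. These groups overlapped by 1 array, the difference was 0.49 ± 0.16 (SE, adjusted p = 0.031), and the call was lost when any of 4 single arrays was left out. Uqcrb, which binds ubiquinone, had means of 13.27 in 4T1 tumours, 13.31 in 66cl4 and 13.29 in 67NR.

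In complex I, the iron-sulfur subunit Ndufs7 had 9.96, 10.19 and 10.31 in 4T1 tumours, 10.64, 10.73 and 10.77 in 66cl4 tumours and 11.09, 11.28 and 11.23 in 67NR tumours. The 3 lines did not overlap, with 4T1 lowest and 67NR highest. The differences were -1.05 ± 0.11 for 4T1 minus 67NR (SE, adjusted p = 8.2e-05), -0.49 ± 0.11 for 66cl4 minus 67NR (adjusted p = 0.0086) and -0.56 ± 0.11 for 4T1 minus 66cl4 (adjusted p = 0.0036). Ndufs4, an accessory subunit whose loss causes Leigh-like disease in mice, had 9.28, 9.21 and 9.07 in 4T1 tumours, 9.16, 9.30 and 9.30 in 66cl4 tumours and 10.10, 10.05 and 10.45 in 67NR tumours. Both were below 67NR, by -1.01 ± 0.13 in 4T1 (SE, adjusted p = 0.00019) and -0.95 ± 0.13 in 66cl4 (adjusted p = 0.00035), and 4T1 and 66cl4 overlapped.

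Ndufa12, a subunit that joins late in assembly, had 10.97, 10.94 and 11.13 in 4T1 tumours, 11.01, 11.10 and 11.04 in 66cl4 tumours and 11.87, 12.02 and 12.02 in 67NR tumours. Again 67NR stood above both other lines, with differences of -0.96 ± 0.10 for 4T1 (SE, adjusted p = 5.1e-05) and -0.92 ± 0.10 for 66cl4 (adjusted p = 9.5e-05). When probe sets that can match several transcripts were left out, Ndufa12 was read from another, dim probe set, and the differences were 0.18 and 0.29, neither called. Ndufaf2, the assembly factor and paralog that Ndufa12 replaces, had 8.21, 7.91 and 7.72 in 4T1 tumours, 8.41, 8.46 and 8.54 in 66cl4 tumours and 8.39, 8.68 and 8.79 in 67NR tumours. It was lower in 4T1 than in 67NR, by -0.67 ± 0.15 (SE, adjusted p = 0.0049), and than in 66cl4, by -0.53 ± 0.15 (adjusted p = 0.017). Of the other accessory subunits, Ndufb2 (-0.78), Ndufc1 (-0.74) and Ndufa6 (-0.73) had the lowest differences to 67NR. Ndufc2, the partner of Ndufc1 in the membrane arm, was higher in 4T1 than in 67NR, by 0.44 ± 0.11 (SE, adjusted p = 0.010), and Ndufb7 by 0.36 ± 0.10 (adjusted p = 0.015). Both lost the call with either covariate.

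Complex II had 1 member lower in 4T1 than in 67NR tumours. Sdhb, the iron-sulfur subunit, had 10.80, 10.62 and 10.38 in 4T1 tumours, 11.26, 11.20 and 11.29 in 66cl4 tumours and 11.17, 11.25 and 11.42 in 67NR tumours. All 4T1 arrays lay below the 6 others, with differences of -0.68 ± 0.13 to 67NR (SE, adjusted p = 0.0020) and -0.64 ± 0.13 to 66cl4 (adjusted p = 0.0026). Sdha, the flavoprotein that oxidises succinate, had 10.29, 10.17 and 10.05 in 4T1 tumours, 10.82, 10.69 and 10.88 in 66cl4 tumours and 10.40, 10.25 and 10.43 in 67NR tumours. The 66cl4 arrays were highest, by 0.44 ± 0.11 over 67NR (SE, adjusted p = 0.011), and 4T1 was lower than 66cl4 by -0.63 ± 0.11 (adjusted p = 0.0012). Another bright probe set of Sdha had 0.14 for 66cl4 minus 67NR, which did not pass (adjusted p = 0.40). It had -0.51 for 4T1 minus 66cl4 (adjusted p = 0.0070) and -0.37 for 4T1 minus 67NR (adjusted p = 0.032). The membrane anchors Sdhc and Sdhd overlapped among the lines, with means between 10.25 and 10.58.

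In complex V, Atp5g1, Atp5g2 and Atp5g3 encode the same mature c subunit of the proton-driven ring. Atp5g2 had 11.21, 11.10 and 11.07 in 4T1 tumours, 11.90, 11.85 and 12.03 in 66cl4 tumours and 11.86, 11.81 and 12.08 in 67NR tumours, a gap of -0.79 ± 0.11 to 67NR (SE, adjusted p = 0.00033) and -0.80 ± 0.11 to 66cl4 (adjusted p = 0.00029). Atp5g1 had 10.22, 9.96 and 9.87 in 4T1 tumours, 10.40, 10.44 and 10.44 in 66cl4 tumours and 10.56, 10.63 and 10.86 in 67NR tumours, and was lower in 4T1 than in 67NR by -0.66 ± 0.12 (SE, adjusted p = 0.0019). Atp5g3 had means of 12.75 ± 0.01 in 4T1 tumours, 12.68 ± 0.03 in 66cl4 and 12.82 ± 0.10 in 67NR (SD, n = 3 each). Both Atp5g1 and Atp5g2 were thus lower in 4T1, while Atp5g3 passed no test.

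Atp5h, subunit d of the peripheral stalk, averaged 11.99 ± 0.11 in 4T1 tumours (SD, n = 3), with a lowest array of 11.88 and a highest of 12.09, and had 12.95, 12.94 and 13.03 in 66cl4 tumours and 12.65, 12.65 and 12.61 in 67NR tumours. The 3 lines did not overlap, and the differences were -0.65 ± 0.09 for 4T1 minus 67NR (SE, adjusted p = 0.00048), 0.34 ± 0.09 for 66cl4 minus 67NR (adjusted p = 0.019) and -0.98 ± 0.09 for 4T1 minus 66cl4 (adjusted p = 3.3e-05). The Atp5h call for 66cl4 minus 67NR was lost with at least 1 of the covariates, while its calls in the comparisons with 4T1 held with both. Atp5d, the delta subunit of the F1 head, had 11.69 on each of the 3 4T1 arrays, 11.94, 11.92 and 11.87 in 66cl4 tumours and 12.37, 12.46 and 12.39 in 67NR tumours. It fell below 67NR in both, by -0.72 ± 0.09 in 4T1 (SE, adjusted p = 0.00014) and -0.49 ± 0.09 in 66cl4 (adjusted p = 0.0016). The alpha and beta subunits of the F1 head did not pass in any comparison: Atp5b had means of 12.78 in 4T1 tumours, 12.70 in 66cl4 and 12.99 in 67NR, and Atp5a1 had means of 11.85 in 4T1 tumours, 12.19 in 66cl4 and 11.85 in 67NR. A second bright probe set of Atp5a1, with means of 11.51 in 4T1 tumours, 12.04 in 66cl4 and 11.62 in 67NR, did pass, by 0.42 for 66cl4 minus 67NR (adjusted p = 0.011) and -0.54 for 4T1 minus 66cl4 (adjusted p = 0.0024).

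**Figure D2:**
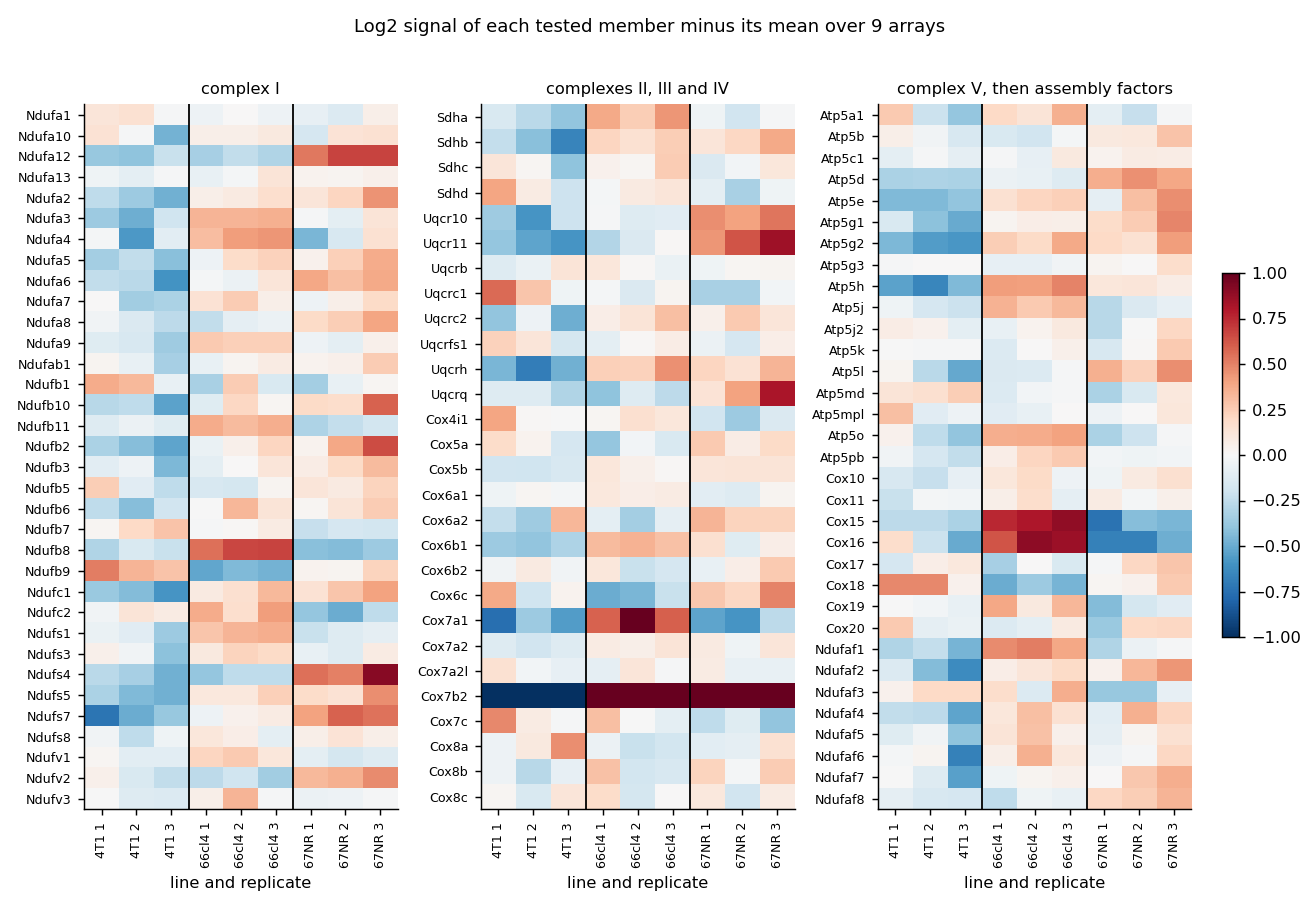
Log2 signal of the 95 tested members on the 9 arrays (columns, by line and replicate), each minus its mean over 9 arrays, with the colour scale ending at -1 and 1. All 4T1 arrays lay below the 6 others for 28 members (29.5%, against 15.2% of all genes). All 66cl4 arrays lay above the 6 others for 22 (23.2%, against 16.2%).

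Cox7b2 had the widest difference of all members. It is a paralog of the complex IV subunit gene Cox7b, known from human testis. Cox7b2 had log2 signals of 3.49, 3.29 and 4.20 in 4T1 tumours, 8.99, 8.79 and 8.96 in 66cl4 tumours and 8.14, 8.22 and 8.61 in 67NR tumours. None of the 4T1 arrays was above background, taken per array as the highest of 27 bacterial control probe sets (4.83 to 5.08), while all arrays of the other lines were. Against that background the signal was at least 10.2-fold lower in 4T1 than in 67NR tumours (adjusted p = 3.9e-07) and at least 15.4-fold lower than in 66cl4 tumours (adjusted p = 1.7e-07). The means were 3.66 ± 0.48 in 4T1 tumours, 8.92 ± 0.11 in 66cl4 and 8.32 ± 0.25 in 67NR (SD, n = 3 each), and 66cl4 and 67NR were not separated by the test. Cox7b itself was not analysed here, so the pair could not be set side by side.

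The other complex IV genes called between 4T1 and 67NR were Cox4i1, Cox7c, Cox6b1 and Cox5b (-0.31). Cox4i1, the ubiquitous form of subunit 4, had 12.86, 12.49 and 12.47 in 4T1 tumours and 12.28, 12.11 and 12.33 in 67NR tumours, a difference of 0.37 ± 0.13 (SE, adjusted p = 0.044) that was lost without any of 4 single arrays. Cox7c was also called higher in 4T1, by 0.44 ± 0.16 (SE, adjusted p = 0.0496), from a dim probe set, and lost the call without any of 5 single arrays. Cox6b1, which faces the intermembrane space, had 11.98, 11.95 and 12.03 in 4T1 tumours, 12.66, 12.69 and 12.64 in 66cl4 tumours and 12.50, 12.22 and 12.41 in 67NR tumours. The 3 lines did not overlap, and 4T1 was lower than 67NR by -0.39 ± 0.10 (SE, adjusted p = 0.011) and than 66cl4 by -0.67 ± 0.10 (adjusted p = 0.00052). Ndufa4, named for complex I but now placed in complex IV, had means of 10.15 ± 0.30 in 4T1 tumours, 10.78 ± 0.07 in 66cl4 and 10.23 ± 0.30 in 67NR (SD, n = 3 each). Cox7a2, Cox7a2l, Cox6a1 and Cox8a, the forms found in most tissues, passed no test between lines, although another probe set of Cox7a2 had -0.37 for 4T1 minus 67NR (adjusted p = 0.026).

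Cox7a1, the heart and muscle form of subunit 7a, had 3.96, 4.35 and 4.16 in 4T1 tumours, 5.30, 6.58 and 5.32 in 66cl4 tumours and 4.19, 4.13 and 4.45 in 67NR tumours. It was above background in 66cl4 alone, at least 1.73-fold higher than in 67NR (adjusted p = 0.0040) and at least 1.69-fold lower in 4T1 than in 66cl4 (adjusted p = 0.0023). Skeletal muscle markers averaged 5.02, 5.93 and 5.23 on the 3 66cl4 arrays, of which the second had the highest Cox7a1 signal. They averaged 5.04 to 5.45 on the 4T1 arrays and 5.05 to 5.30 on the 67NR arrays. Of 10 tested muscle markers, 1 was higher (Tnni2, 2.08) and 1 lower (Myh1, -3.29) in 66cl4 than in 67NR. Of the 13 muscle markers, Myh2 and Pygm were not above background in any of the 3 lines. Myh4 was not above it in 4T1 or 67NR tumours, nor were Tnnt3 and Actn3 in 67NR tumours. The part of muscle RNA in the Cox7a1 values was not tested further. The muscle forms Cox6a2 (means of 6.94 in 4T1, 6.85 in 66cl4 and 7.29 in 67NR) and Cox8b (4.84 in 4T1, 4.96 in 66cl4 and 5.13 in 67NR) passed no test. Nor did the testis forms Cox6b2 (5.06 in 4T1, 4.96 in 66cl4 and 5.13 in 67NR) and Cox8c (7.50 in 4T1, 7.51 in 66cl4 and 7.50 in 67NR).

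**Figure D3:**
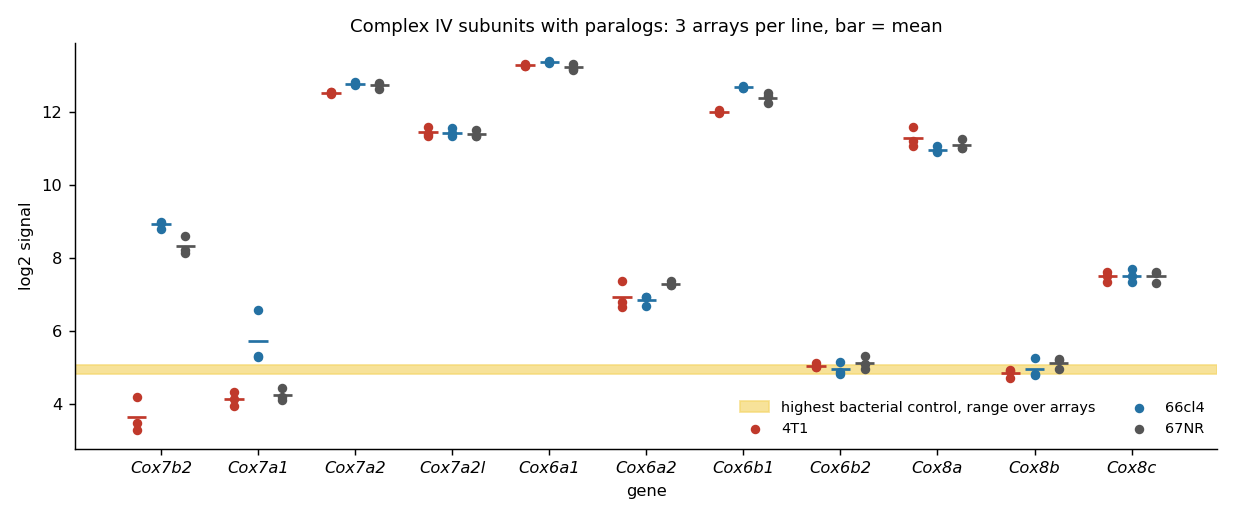
Log2 signal of complex IV subunits that have paralogs, 3 arrays per line with the mean as a bar, in 4T1, 66cl4 and 67NR tumours. The yellow band is the background of 4.83 to 5.08, and Cox7b2 lies below it in 4T1 tumours alone.

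The second comparison set 66cl4 tumours against 67NR tumours. Here members moved both ways: 18 of 95 were higher (18.9%) and 15 lower (15.8%), against 20.0% and 16.0% of all genes tested. The shares were near the background, and the median difference was 0.02, against 0.01 over all genes. In complex I 7 of 34 genes were higher and 7 lower. In complex III 3 of 8 were lower, in complex IV 2 of 16 were higher and 1 lower, in complex V 3 of 17 were higher and 2 lower, and among assembly factors 5 of 16 were higher and 2 lower. At least 2-fold changes were called for 4 members (4.21%), against 10.9% of all genes. With the array number as a covariate 11 members were higher (11.6%, against 16.3% of all genes) and 9 lower (9.47%, against 11.9%), and with the spiked controls 13 were higher (13.7%, against 16.4%) and 10 lower (10.5%, against 12.3%). In all 3 fits 11 members were called higher and 8 lower.

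Cox15 and Cox16, both needed to build complex IV, had the largest higher signals in 66cl4 after Cox7a1. Cox15, which makes heme a, had 7.85, 7.85 and 7.79 in 4T1 tumours, 8.86, 8.92 and 8.99 in 66cl4 tumours and 7.37, 7.68 and 7.65 in 67NR tumours. The 66cl4 arrays lay well above the 6 others, with a difference of 1.36 ± 0.11 to 67NR (SE, adjusted p = 1.6e-05), a 2.57-fold higher signal. Cox16 had 8.44, 8.05 and 7.76 in 4T1 tumours, 8.90, 9.16 and 9.12 in 66cl4 tumours and 7.59, 7.59 and 7.78 in 67NR tumours, a difference of 1.41 ± 0.17 to 67NR (SE, adjusted p = 0.00017). Cox10, which acts before Cox15 in heme a synthesis, had means of 7.44 in 4T1 tumours, 7.69 in 66cl4 and 7.67 in 67NR.

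Ndufb8, a membrane-arm subunit often used as an antibody target for assembled complex I, had 10.84, 10.99 and 10.91 in 4T1 tumours, 11.69, 11.81 and 11.81 in 66cl4 tumours and 10.72, 10.70 and 10.77 in 67NR tumours. It was 2.05-fold higher in 66cl4 than in 67NR, a difference of 1.04 ± 0.09 (SE, adjusted p = 3.1e-05). Ndufc2 (0.70), Ndufb11 (0.59), the assembly factor Ndufaf1 (0.58), the stalk subunits Atp5o (0.56) and Atp5j (0.48), Cox19 (0.51) and the core subunit Ndufs1 (0.47) were also higher. Ndufa4 (0.55) and Cox6b1 (0.28) lost the call without any of 5 single arrays. Besides Ndufs4, Ndufa12 and Uqcr11 (-0.78), the lower genes were led by Cox6c (-0.72), Uqcrq (-0.72), Ndufv2 (-0.65), Ndufb9 (-0.57), Cox18 (-0.55) and Uqcr10 (-0.55). Of the genes named here for 66cl4 minus 67NR, Cox19, Ndufa4, Cox6b1, Cox6c, Uqcrq and Cox18 lost the call with at least one of the covariates.

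The third comparison set 4T1 tumours against 66cl4 tumours, both lines known to spread. In 4T1 36 of 95 members were lower (37.9%) and 3 higher (3.16%), against 23.4% and 17.9% of all genes tested. The median difference was -0.23, against -0.03 over all genes. Of complex I 16 of 34 were lower, of complex II 2 of 4, of complex III 2 of 8, of complex IV 4 of 16, of complex V 7 of 17 and of the assembly factors 5 of 16. The 2 comparisons with 4T1 share the 4T1 arrays, so their counts are not separate evidence. With the array number as a covariate 29 members were lower (30.5%, against 19.9% of all genes), and with the spiked controls 20 (21.1%, against 15.4%). The lowest after Cox7b2 and Cox7a1 were Cox15 (-1.10), Atp5h (-0.98), Cox16 (-0.97), Ndufb8 (-0.86), Uqcrh (-0.85), Atp5g2 (-0.80), Ndufaf1 (-0.79) and Ndufa3 (-0.70). At least 2-fold changes were called for 3 members (3.16%), against 13.7% of all genes.

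The 3 higher members were Ndufb9, Cox18 and Cox6c. Ndufb9, a complex I accessory subunit, had 12.07, 11.89 and 11.84 in 4T1 tumours, 11.04, 11.11 and 11.08 in 66cl4 tumours and 11.59, 11.58 and 11.78 in 67NR tumours, a difference of 0.86 ± 0.10 (SE, adjusted p = 0.00015). Cox18, which inserts a complex IV core subunit into the membrane, had 9.06, 9.06 and 8.62 in 4T1 tumours, 8.09, 8.22 and 8.12 in 66cl4 tumours and 8.61, 8.62 and 8.84 in 67NR tumours, a difference of 0.77 ± 0.14 (SE, adjusted p = 0.0015). For both genes 66cl4 was the lowest line. Cox6c had a difference of 0.47 ± 0.16 (SE, adjusted p = 0.038), which was lost without any of 4 single arrays.

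Over the 3 lines together, a moderated F-test called 53 of 95 members (55.8%), against 56.6% of all genes. By complex it called 23 of 34 in I (67.6%), 2 of 4 in II (50%) and 5 of 8 in III (62.5%). It called 5 of 16 in IV (31.2%), 9 of 17 in V (52.9%) and 9 of 16 assembly factors (56.2%). All 3 4T1 arrays lay below the 6 others for 28 members (29.5%), against 15.2% of all genes, and above them for Atp5md and Ndufb9 (2.11%), against 12.7%. All 66cl4 arrays lay above the others for 22 members (23.2%), against 16.2%, and below for 4 (4.21%), against 10.5%. All 67NR arrays lay above for 15 members (15.8%), against 11.8%. The count of members with all 67NR arrays below the others is not reported here. The mean over the 95 members was 10.16, 10.07 and 10.01 on the 4T1 arrays, 10.33, 10.39 and 10.40 on the 66cl4 arrays and 10.26, 10.32 and 10.46 on the 67NR arrays, so the 4T1 arrays were the 3 lowest.

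Several of the widest differences sat beside neighbouring genes that differed in the same direction, a pattern looked for after the values were seen. Each member was set beside the median difference of the 20 nearest tested genes, 10 on each side. Cox15 and Ndufb8 lie on chromosome 19 with 8 tested genes between them, and their neighbours had median differences of 0.87 and 0.90 for 66cl4 minus 67NR. On chromosome 10 lie Atp5d, Ndufs7, Uqcr11, Ndufa12 and Atp5b, and all but Atp5b were lower in 4T1 and in 66cl4 than in 67NR. Their neighbours had median differences of -0.30 for Atp5d, -0.29 for Ndufs7, -0.14 for Uqcr11 and -0.35 for Ndufa12 in 4T1 minus 67NR, all smaller than the members' own. In 66cl4 minus 67NR the neighbours' medians were -0.40, -0.34, -0.21 and -0.49 in the same order. The members' own differences there were -0.49, -0.49, -0.78 and -0.92. Of the other 627 tested genes of that chromosome 39.2% were lower in 4T1 and 36.4% lower in 66cl4. Atp5d and Ndufs7 have 5 tested genes between them, and Uqcr11 and Ndufs7 have 10. The neighbours of Ndufs4 on chromosome 13 had medians of -0.86 in 4T1 and -0.65 in 66cl4, against 67NR. Those of Ndufb9 on chromosome 15 had a median of 0.64 for 4T1 minus 66cl4, and those of Atp5h on chromosome 11 had -0.70. For other members the neighbours' medians were nearer 0: the neighbours of Cox7b2 had medians of -0.07 and 0.07 in the 4T1 comparisons with 67NR and 66cl4, those of Cox16 had 0.12 for 66cl4 minus 67NR, and those of Uqcrh had -0.16 for 4T1 minus 67NR.

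Across members, the difference and the neighbours' median correlated with Pearson r of 0.35 and Spearman rho of 0.51 for 4T1 minus 67NR, 0.66 and 0.58 for 66cl4 minus 67NR, and 0.25 and 0.37 for 4T1 minus 66cl4 (n = 94 members). Over the 12852 other genes r was 0.18 for 4T1 minus 67NR, 0.22 for 66cl4 minus 67NR and 0.18 for 4T1 minus 66cl4. Their rho was 0.26, 0.25 and 0.21 in the same order. Points share arrays and neighbours, so these are descriptions across genes.

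**Figure D4:**
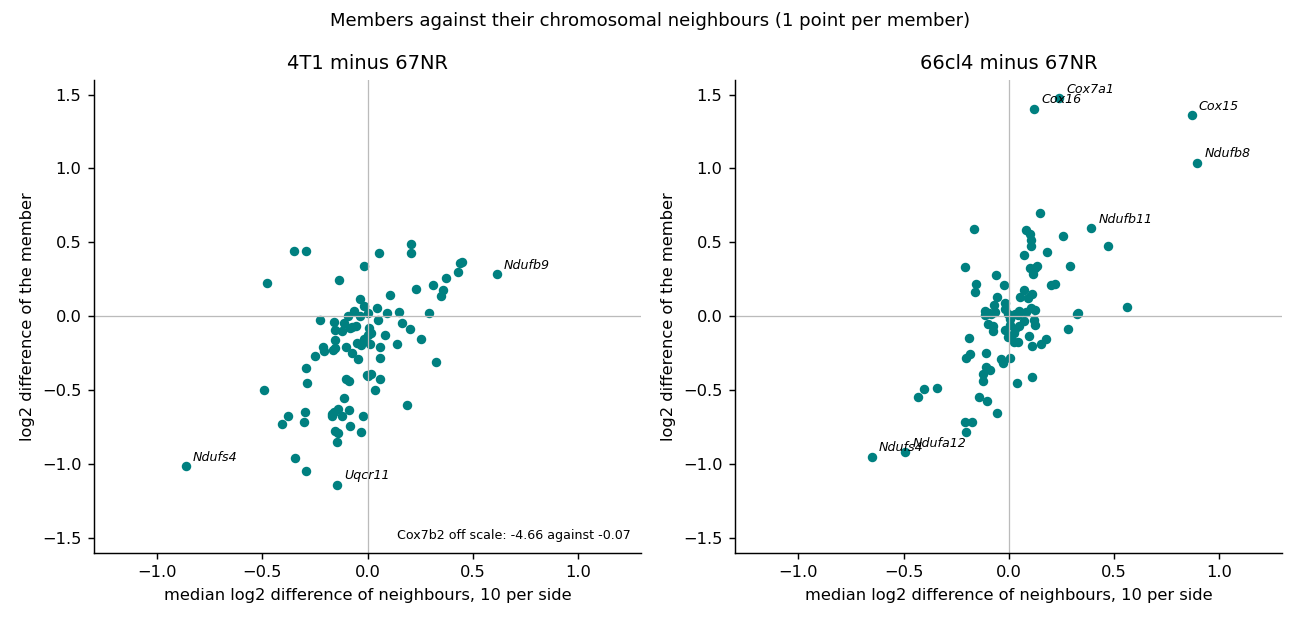
Log2 difference of each member (vertical) against the median log2 difference of its 20 neighbouring tested genes (horizontal), for 4T1 minus 67NR and 66cl4 minus 67NR. Cox15 and Ndufb8 at the upper right and Ndufs4 at the lower left lie with their neighbours, while Cox16 and Cox7a1 lie above neighbours with medians of 0.12 and 0.24 for 66cl4 minus 67NR.

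Other genes of mitochondrial energy metabolism were counted in lists. The shares over all genes tested, against which the counts are read, were 19.4% higher and 20.5% lower for 4T1 minus 67NR, 20.0% and 16.0% for 66cl4 minus 67NR, and 17.9% and 23.4% for 4T1 minus 66cl4. Of 33 tested assembly factors outside the prefixes, 5 were higher (15.2%) and 7 lower (21.2%) in 4T1 than in 67NR, 7 higher (21.2%) and 3 lower (9.09%) in 66cl4 than in 67NR, and 1 higher (3.03%) and 10 lower (30.3%) in 4T1 than in 66cl4. Sdhaf4, which helps mature Sdha, had differences of 1.55 ± 0.13 for 4T1 minus 67NR (SE, adjusted p = 1.8e-05) and 2.20 ± 0.13 for 66cl4 minus 67NR (adjusted p = 3.6e-06). Uqcc2, needed for complex III, was lower in 4T1 than in 67NR by -1.14 ± 0.15 (SE, adjusted p = 0.00025), and Sco2, a copper chaperone of complex IV, was lower in 4T1 than in 66cl4 by -1.09 ± 0.17 (adjusted p = 0.00073). Of 23 electron carriers and related genes, 2 were higher (8.70%) and 6 lower (26.1%) in 4T1 than in 67NR, 6 higher (26.1%) and 4 lower (17.4%) in 66cl4 than in 67NR, and 3 higher and 9 lower (39.1%) in 4T1 than in 66cl4. Cyc1, cytochrome c1 of complex III, was lower in 4T1 than in 67NR by -0.75 ± 0.09 (SE, adjusted p = 0.00019) and than in 66cl4 by -0.68 ± 0.09 (adjusted p = 0.00035). Coq7, an enzyme of ubiquinone synthesis, was lower in 4T1 than in 67NR by -1.34. Dhodh was higher in 4T1 than in 67NR by 0.62 ± 0.11 (SE, adjusted p = 0.0020), and the median of this list was 0.007 there.

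The mitochondrial ribosome, which translates the subunits encoded in mitochondrial DNA, had 6 of 76 genes higher (7.89%, against 19.4% of all genes) and 21 lower (27.6%, against 20.5%) in 4T1 than in 67NR. In 66cl4 22 were higher (28.9%, against 20.0%) and 4 lower (5.26%, against 16.0%) than in 67NR. Set against 66cl4, 2 were higher (2.63%, against 17.9%) and 37 lower (48.7%, against 23.4%) in 4T1. Its median differences were -0.17 for 4T1 minus 67NR, 0.09 for 66cl4 minus 67NR and -0.36 for 4T1 minus 66cl4. Mrpl42 had -1.13 ± 0.12 for 4T1 minus 67NR (SE, adjusted p = 7.5e-05) and Mrps30 had 1.01 ± 0.10 for 66cl4 minus 67NR (adjusted p = 6.6e-05). Of 18 genes of the tricarboxylic acid cycle and its entry, 5 were higher (27.8%, against 19.4% of all genes) and 4 lower (22.2%, against 20.5%) in 4T1 than in 67NR. In 66cl4 9 of the 18 were higher (against 20.0%) and 2 lower (11.1%, against 16.0%) than in 67NR, and 7 were lower in 4T1 than in 66cl4 (38.9%, against 23.4%). Citrate synthase (Cs) was lower in 4T1 by -0.76 ± 0.09 (SE, adjusted p = 0.00015) and in 66cl4 by -0.58 ± 0.09 (adjusted p = 0.00094), while Pdha1 of pyruvate dehydrogenase was higher by 0.96 in 4T1 and by 0.79 in 66cl4, all against 67NR.

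Of 17 tested regulators, 4 were higher and 4 lower in 4T1 than in 67NR (23.5% each, against 19.4% and 20.5% of all genes). In 66cl4 5 were higher (29.4%, against 20.0%) and 4 lower (23.5%, against 16.0%) than in 67NR, and in 4T1 3 were higher (17.6%, against 17.9%) and 7 lower (41.2%, against 23.4%) than in 66cl4. The median of the regulators was 0.16 for 4T1 minus 67NR. Polrmt, the mitochondrial RNA polymerase, was lower in 4T1 than in 67NR by -1.41 ± 0.09 (SE, adjusted p = 3.7e-06). Twnk was higher in 4T1 than in 67NR by 0.49 ± 0.10 (SE, adjusted p = 0.0027). Ppargc1b, a coactivator of mitochondrial biogenesis, was lower in 4T1 than in 67NR by -1.06 ± 0.15 (SE, adjusted p = 0.00039). Its relative Pprc1 was higher in 66cl4 than in 67NR by 1.44 ± 0.14 (SE, adjusted p = 4.8e-05).

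Genes of glycolysis and of the hypoxia response went the other way from the respiratory genes in 4T1. Of 19 tested, 16 were higher (84.2%, against 19.4% of all genes) and 1 lower (5.26%, against 20.5%) in 4T1 than in 67NR. In 66cl4 8 were higher (42.1%, against 20.0%) and 4 lower (21.1%, against 16.0%) than in 67NR, and 11 were higher in 4T1 than in 66cl4 (57.9%, against 17.9%), with median differences of 1.07 for 4T1 minus 67NR, 0.63 for 66cl4 minus 67NR and 0.47 for 4T1 minus 66cl4. Car9, a hypoxia-induced carbonic anhydrase, had 4.75 ± 0.26 for 4T1 minus 67NR (SE, adjusted p = 8.9e-07) and 4.89 ± 0.26 for 66cl4 minus 67NR (adjusted p = 1.7e-06). Pdk1, which restrains pyruvate entry into mitochondria, had 1.67 for 4T1 minus 67NR and 1.76 for 66cl4 minus 67NR. The hypoxia-linked isoforms left out of the members did not rise: Ndufa4l2 was lower in 66cl4 than in 67NR by -1.36 ± 0.29 (SE, adjusted p = 0.0053) and Cox4i2 by -0.37 ± 0.11 (adjusted p = 0.025), and neither passed in the comparisons with 4T1.

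**Figure D5:**
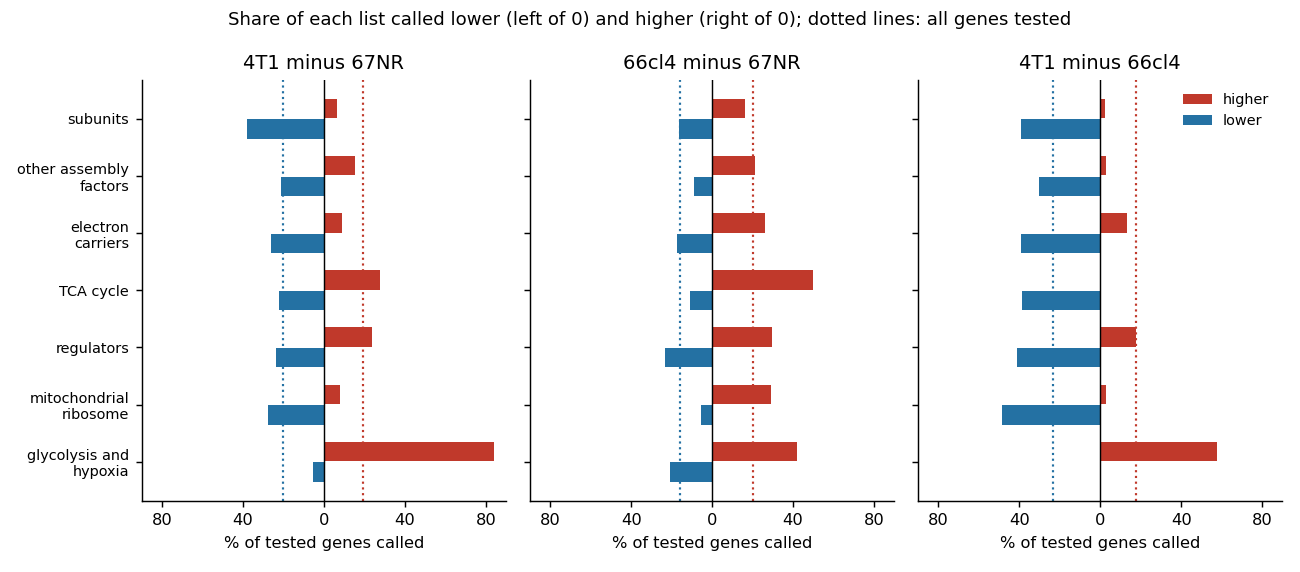
Share of tested genes called higher (right of 0) and lower (left of 0) for the 79 subunits and for 6 lists of related genes, in 4T1 minus 67NR, 66cl4 minus 67NR and 4T1 minus 66cl4, with the shares over all genes tested as dotted lines. Glycolysis and hypoxia genes show the longest bar to the right in 4T1 minus 67NR, with 84.2% higher.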

How the data were processed

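Expression was measured on 9 single-colour Affymetrix arrays, 1 per mouse, 3 mice per line, and groups and replicate numbers follow the labels. The authors deposited 1 log2 value for each of 45101 probe sets per array. Their range, 2.42 to 14.80, shows the log2 scale. Summarisation and normalisation of the probes: not given in the sources used here. Array medians were 5.51 to 5.58, and no further scaling was applied. The number of arrays limits the precision, and there is no read depth. Symbols came from the platform annotation, updated through a RefSeq table of GRCm38.p6. Of 34958 probe sets with a single symbol, 34741 matched it. Another 932 probe sets name several genes and 9211 none. The brightest probe set annotated to a gene alone represented it, members keeping the array's symbols, and a gene was tested if its signal exceeded, on 3 or more arrays, the 40th percentile there.

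Per gene, limma 3.58.1 (R 4.3.3; lmFit and eBayes, group means of all 9 arrays, no covariate, 6 residual degrees of freedom) compared the lines two-sided, with Benjamini-Hochberg adjustment over all 13409 genes and a threshold of 0.05. The fit was tested on simulated data. An exact permutation test of 3 against 3 mice cannot go below p = 0.1. Where a line was not above background, the fold is a bound ("at least") against the mean of the highest bacterial control per array, which is approximate. Named genes were, per comparison, up to 12 called members at either end of the log2 difference, all Sdh genes, members with tissue isoforms, the 2 genes left out, and up to 4 genes of each list with the smallest p; Ndufaf2, Atp5a1, Atp5b, Uqcrb, Cox10 and Uqcrc2 were added after their values were seen, as were other genes in lists of calls. Members and lists were chosen with earlier results of these data known. Alternatives covered quantile normalization, the filter, the choice of probe set, covariates, the lines in the fit, the replicate block and leaving out each array. Motifs were searched in RefSeq promoter windows with Python 3.11.15.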

Additional observations from a re-analysis of the deposited data

Results flagged for a closer look

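11 probe sets annotated to a gene with one of the prefixes together with another gene were left out of the comparisons above. Of these, 10 had signals above the bacterial controls, while one of Yjefn3 and Ndufa13 had a mean log2 signal of 4.66 and was above them on 1 array. Ndufa11, Ndufs6 and Cox14 have such shared probe sets alone and are not among the members. As means over 9 arrays, the probe set shared by Ndufs5 and Ndufs5-ps had a log2 signal of 10.1, those shared by Ndufb4, Ndufb4b and Ndufb4c had 10.3 and 10.1, and those shared by Ndufa11 and Ndufa11b had 10.2 and 6.15. The probe set shared by Ndufs6 and Ndufs6b had 10.4, that of Ndufab1 and Ndufab1-ps 10.4, that of Ndufa13 and Yjefn3 6.71, that of Ndufb2 and Adck2 6.20, and that of Cox14 and Gm29733 9.26. Which of the genes gave the signal cannot be told apart. A wide difference between lines was seen in a probe set of the Ndufb4 genes, with means of 9.63 in 4T1 tumours, 10.20 in 66cl4 and 10.51 in 67NR and a difference of -0.88 ± 0.16 for 4T1 minus 67NR (SE, limma adjusted p = 0.0020). The probe set of Cox14 had means of 9.10 in 4T1 tumours, 9.11 in 66cl4 and 9.57 in 67NR, with differences of -0.46 to 67NR in 4T1 (adjusted p = 0.010) and -0.45 in 66cl4 (adjusted p = 0.014).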

How the results depend on the processing

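Quantile normalization, no filter, a filter at the 60th percentile and the mean of all probe sets of a gene kept each count of called members within 1.5 times. For 4T1 minus 67NR, 10 members were lower with the array number as a covariate (10.5%, against 8.89% of all genes). With the spiked controls 10 were lower (10.5%, against 7.46%), and the medians were -0.065 and -0.089. The 6 higher members became 1 with the array number (1.05%, against 11.0%) and 0 with the spiked controls (against 8.58%). With the spiked controls 6 were higher at an unadjusted limma p under 0.05. Without probe sets marked _s, _x or _a 3 were higher (4.23%, against 19.1%). With only the 2 lines in the fit 3 were higher (3.16%, against 17.6%). For 66cl4 minus 67NR the array number left 11 higher (11.6%, against 16.3% of all genes) and 9 lower (9.47%, against 11.9%). Without _s, _x or _a probe sets only 71 members were tested, and 22 were lower (31.0%) for 4T1 minus 67NR, against 19.8% of all genes, and 22 (31.0%) for 4T1 minus 66cl4, against 22.4%, there with a median of -0.14. For 4T1 minus 66cl4, 20 were lower with the spiked controls (21.1%, against 15.4% of all genes). The spiked controls left 34 in the F-test (35.8%, against 42.9%). Apart from the smaller number tested, the cause was not tested. Without _s, _x or _a probe sets Ndufa12 turned to 0.18 for 4T1 minus 67NR and 0.29 for 66cl4 minus 67NR. Leaving out each array in turn gave 2 to 9 higher and 28 to 33 lower members for 4T1 minus 67NR (median -0.23 to -0.13), with 2 higher without 67NR replicate 1 or 2, 3 without 4T1 replicate 1 or 2 and 9 without 4T1 replicate 3, 13 to 17 higher and 12 to 14 lower for 66cl4 minus 67NR (median -0.04 to 0.05), 2 to 3 higher and 26 to 38 lower for 4T1 minus 66cl4 (median -0.26 to -0.17), and 48 to 55 in the F-test. Replicate numbers did not pair the arrays: deviations of same-numbered arrays correlated at -0.11 to 0.16, and 3 of 9 arrays correlated best with their own number. With the replicate block 4 members were higher (4.21%, against 18.3% of all genes) and 32 lower (33.7%, against 19.4%) for 4T1 minus 67NR. For 66cl4 minus 67NR 18 were higher (18.9%, against 18.7%) and 14 lower (14.7%, against 14.9%). For 4T1 minus 66cl4 3 were higher (3.16%, against 16.9%) and 32 lower (33.7%, against 21.8%). Of 972 recomputed values of called named genes, 863 kept direction and call, 107 lost the call and 2 reversed, and of 637 for named genes that were not called 15 were called.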

Other observations

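For called members with another tested probe set, 29 of 34 other probe sets had the same direction for 4T1 minus 67NR, 29 of 33 for 66cl4 minus 67NR and 31 of 35 for 4T1 minus 66cl4. The genes with an opposite probe set were Atp5g2, Cox5b, Ndufa12, Ndufc2 and Uqcrq in the first, Ndufa12, Ndufb9, Ndufc2 and Uqcrq in the second, and Atp5g2, Cox5b, Ndufb2 and Ndufv1 in the third. For tested members that were not called, 6 of 47 other probe sets passed for 4T1 minus 67NR (Cox7a2, Ndufa7 with 2, Ndufab1, Ndufb9 and Sdha), 1 of 48 for 66cl4 minus 67NR (Atp5a1) and 3 of 46 for 4T1 minus 66cl4 (Atp5a1, Cox5a and Ndufab1), in a limma fit to all probe sets past the filter.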
